A study of Mus musculus with 6 samples.

Results

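The cytokines described here are interleukin 10, the subunits of the interleukin 12 family and interleukin 15, as measured in RAW 264.7 cells, a mouse macrophage line, after 2 h with lipopolysaccharide (LPS) and LPS-binding protein (LBP). Every probe whose single gene symbol in the platform annotation was Il10, Il12a, Il12b, Il23a, Il27, Ebi3 or Il15 was taken, which gave 9 of the 16281 probes of the table. They belong to 6 of the 7 genes looked for, and Il27 was not analysed here because no probe had it as its only symbol. Of the 9 probes, 8 were measured on all arrays, for 5 genes, and the Ebi3 probe on 4 arrays.

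The treated cells received 100 ng/ml LPS and 100 pM LBP together for 2 h, and the control cells were cultured untreated for the same 2 h. Treated and untreated RNA were hybridised together on 6 arrays, with Cy5 marking the treated RNA on 3 of them and Cy3 on the other 3, and each orientation is numbered as sets 1 to 3. All RNA came from 1 cell line, no sample with LPS or LBP alone was analysed here, and nothing in the labels ties the sets to separate cultures, so the p-values measure only the spread between these sets, which may be technical. An array gives a ratio and no level, so it cannot show which cytokine or which cell type marker was abundant or absent, and fewer expressing cells cannot be told apart from less RNA per cell.

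Interleukin 10 is a secreted homodimer that restrains macrophages and dendritic cells through the transcription factor STAT3. The interleukin 12 family is built from pairs of chains, each a helical cytokine chain joined to a receptor-like chain. IL-12 is Il12a (the helical chain p35) with Il12b (the receptor-like chain p40), IL-23 is Il23a (the helical chain p19) with the same Il12b, and IL-27 is Il27 with the receptor-like chain Ebi3. IL-12 drives type 1 helper T cells and natural killer cells, IL-23 maintains IL-17-producing T cells, and IL-15 is a separate helical cytokine that sustains natural killer and memory T cells. Macrophages are known to make all of these in response to microbial products, at different times.

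Of the 7 genes, 3 had an entry in the RefSeq promoter table (GRCm38.p6): Il12a, Il12b and Ebi3. The 250 bases before the annotated start of the receptor-like chain genes Il12b and Ebi3 are shown, since Il12b is the chain that IL-12 and IL-23 share and Ebi3 is the only subunit with a raised value below. Capitals mark matches, on either strand, to TATANA (the core of a TATA box), the NF-κB consensus, TGANTCA (the AP-1 site), the interferon response element or GAGGAA (the core bound by PU.1 and other Ets factors). None of the 5 overlaps another motif in these windows. The Il12a windows, not shown, hold no match to any of the 5.
Il12b, plus strand, chr11:44399813-44400062: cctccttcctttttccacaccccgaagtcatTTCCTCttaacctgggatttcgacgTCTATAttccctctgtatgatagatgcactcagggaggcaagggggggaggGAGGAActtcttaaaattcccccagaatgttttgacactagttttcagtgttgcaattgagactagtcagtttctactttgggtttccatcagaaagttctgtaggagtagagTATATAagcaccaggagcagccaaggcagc
Ebi3, plus strand, chr17:55952373-55952622: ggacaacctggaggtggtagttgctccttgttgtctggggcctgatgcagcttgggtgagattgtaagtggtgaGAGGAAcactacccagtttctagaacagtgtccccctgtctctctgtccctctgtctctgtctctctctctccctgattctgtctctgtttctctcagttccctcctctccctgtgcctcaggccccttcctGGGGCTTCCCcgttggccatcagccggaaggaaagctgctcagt
The Il12b window has TATANA from base -30 to -25 before the start, a second match further up on the other strand, and GAGGAA on each strand. The Ebi3 window has GAGGAA and, from base -44 to -35, a match to the NF-κB consensus, which a narrower pattern tried first did not find. Among all 32851 windows of this length in the table, 22.6% hold TATANA, 23.3% GAGGAA, 6.75% TGANTCA, 7.25% the NF-κB consensus and 1.14% the interferon response element. These are matches of letters, not shown to be bound.

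Il10 rose after 2 h with LPS and LBP, and the measured IL-12 family subunits Il12a, Il12b and Il23a and the Il15 gene did not pass the test. The values below are log2 ratios of treated over untreated RNA, so that 1 is a doubling, given for single arrays or as the mean ± SD of 3 sets, each the mean of its dye-swap arrays. A gene was called where limma's test of the 3 sets against 0 gave a Benjamini-Hochberg adjusted p under 0.05 over all 11231 features measured on every array. By that rule 7.35% of all features were higher and 7.45% lower, 14.8% in all. Of the 5 member genes tested, 1 was higher and 0 were lower by limma, and the same counts hold at an unadjusted p under 0.05. Their median was 0.09, against -0.00 for all features.

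**Figure D1:**
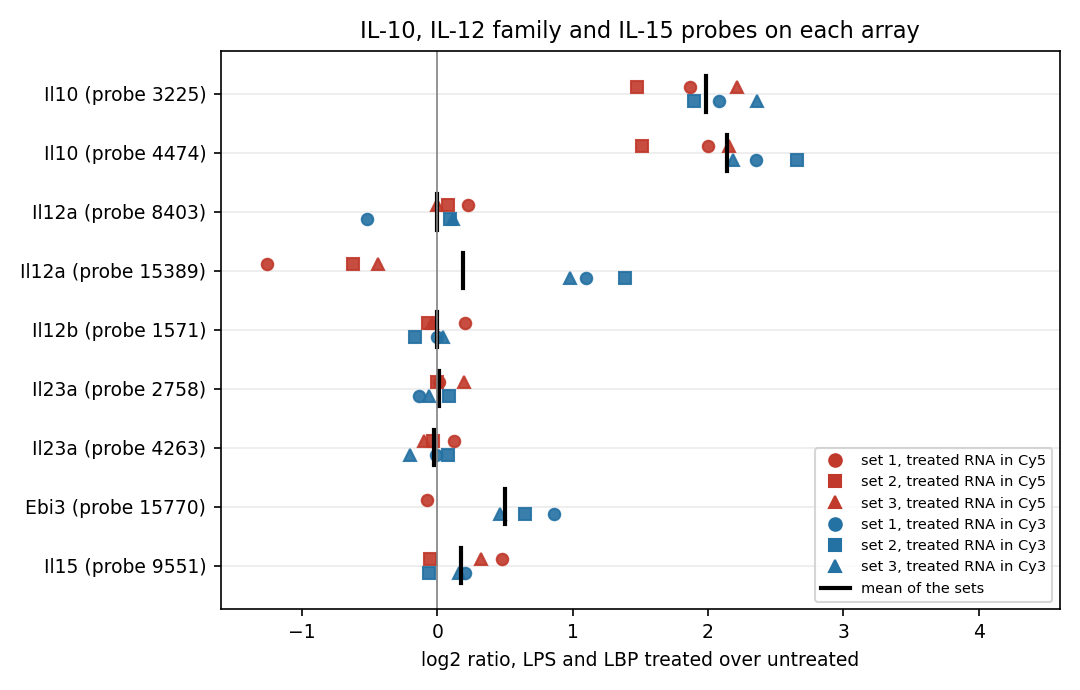
Log2 ratio of treated over untreated RNA (x axis) of each of the 9 member probes (y axis) on each array, with red for treated RNA in Cy5, blue for treated RNA in Cy3, a symbol per set and a black bar at the mean of the sets. Both Il10 probes lie between 1.47 and 2.66 on every array, Il12a probe 15389 splits by dye, and Ebi3 has 4 values.

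Il10 was measured by a pair of probes annotated to the same transcript, NM_010548. Probe 3225 stood at 1.87, 1.47 and 2.22 in sets 1 to 3 with the treated RNA in Cy5, and at 2.08, 1.90 and 2.36 with it in Cy3. Probe 4474 stood at 2.00, 1.51 and 2.16 with the treated RNA in Cy5, and at 2.35, 2.66 and 2.19 with it in Cy3. Both probes were higher on 6 of 6 arrays, and the lowest value of each came from the set 2 array with the treated RNA in Cy5. Tested alone, probe 3225 gave 1.98 ± 0.30 (adjusted p = 6.99e-05, limma) and probe 4474 gave 2.14 ± 0.05 (adjusted p = 2.21e-06, limma).

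Averaged over its probes, Il10 stood at 2.08, 1.88 and 2.23 in the 3 sets. The mean was 2.06 ± 0.17 (SD, n = 3 sets), a 4.18-fold rise with a 95% confidence interval of 1.89 to 2.24 on the log2 scale. This placed Il10 at rank 28 of 9472 named genes. Its mean was 1.87 where Cy5 marked the treated RNA and 2.26 where Cy3 did, and the call held in each orientation alone (adjusted p = 0.0109 and 0.00169, limma).

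Il12b, the chain shared by IL-12 and IL-23, stayed near 0. Its probe stood at 0.21, -0.07 and -0.04 in sets 1 to 3 with the treated RNA in Cy5, and at -0.00, -0.16 and 0.04 with it in Cy3. It was higher on 2 arrays and lower on 4, and its largest departure from 0 was 0.21. The mean was -0.00 ± 0.11 (n = 3 sets, adjusted p = 0.974, limma). The 95% confidence interval ran from -0.14 to 0.13, so a rise of the measured ratio above 1.10-fold lies outside it. How far the probe stood above background is unknown. This interval, like those of the other members, thus bounds the measured ratio and not the change of the transcript.

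Il23a, the chain particular to IL-23, also lay close to 0 on both probes. Probe 2758 ranged from -0.14 to 0.20 over the arrays and probe 4263 from -0.20 to 0.12. Their mean was -0.00 ± 0.04 (n = 3 sets, adjusted p = 0.975, limma), with a 95% confidence interval of -0.11 to 0.11. Il23a had 3 arrays above and 3 below 0, and its sets stood at -0.00, 0.03 and -0.04.

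Il12a, the chain particular to IL-12, had probes that disagreed. Probe 8403 stood at 0.23, 0.08 and -0.00 in sets 1 to 3 with the treated RNA in Cy5, and at -0.52, 0.09 and 0.12 with it in Cy3. Probe 15389, annotated to the same sequence record (M86672), stood at -1.26, -0.63 and -0.43 with the treated RNA in Cy5 and at 1.10, 1.39 and 0.98 with it in Cy3. Probe 8403 was near 0 on all but the set 1 array with the treated RNA in Cy3, while probe 15389 changed sign with the dye and its orientations did not overlap.

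As deposited, before the signs were turned, probe 15389 leaned to Cy3 on 6 of 6 arrays, whichever RNA that dye marked. In a limma fit of the single arrays with a treatment and a dye term, its dye term was -0.96 (adjusted p = 0.0402), or 1.95-fold toward Cy3, and its treatment term was 0.19 (adjusted p = 0.379). A dye term passed for 1.55% of 13224 probes measured on all arrays. The other 7 member probes measured on all arrays had dye terms between -0.25 and 0.10, and none passed (adjusted p from 0.178 to 0.825, limma).

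**Figure D2:**
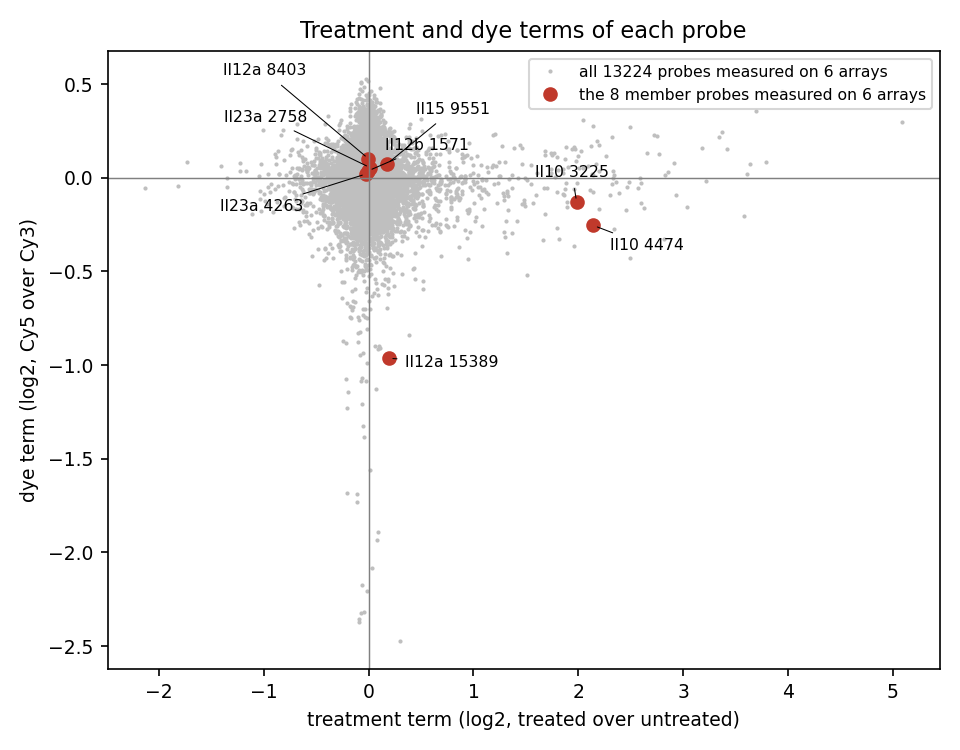
Treatment term (x axis, log2 of treated over untreated) and dye term (y axis, log2 of Cy5 over Cy3) of each probe in the fit of the 6 single arrays; grey points are all 13224 probes measured on 6 arrays and red points the 8 member probes among them. The Il10 probes stand at treatment terms of 1.98 and 2.14, and Il12a probe 15389 at a dye term of -0.96.

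The gene mean of Il12a was 0.09 ± 0.18 (n = 3 sets, adjusted p = 0.479, limma), with a 95% confidence interval of -0.09 to 0.28. It was -0.34 with the treated RNA in Cy5 alone and 0.53 with it in Cy3 alone, neither of which passed (adjusted p = 0.0953 and 0.0686, limma). Probe 8403 alone gave -0.00 ± 0.13 (adjusted p = 0.992, limma).

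Ebi3, the receptor-like chain of IL-27, had a value on 4 arrays. It stood at -0.08 in set 1 with the treated RNA in Cy5, and at 0.86, 0.65 and 0.46 in sets 1 to 3 with it in Cy3. It was thus raised on the 3 arrays of one orientation and near 0 on the only array of the other. In a fit that allowed missing values, over 12202 features of which 6.11% were higher, the mean was 0.50 ± 0.13 (adjusted p = 0.00683, limma), or 1.42-fold, where sets 2 and 3 rest on 1 array each and the dyes are not balanced. As deposited it leaned to Cy3 on 4 of 4 arrays. In a separate fit of the 4 single arrays with a dye term, the value was 0.29, where 1 array had the treated RNA in Cy5. In the fit of sets without set 3 it was 0.52 (adjusted p = 0.0837, limma). The size of the Ebi3 rise thus depends on how the dye is treated, and its call on set 3.

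Il15 leaned upward without passing. Its probe stood at 0.47, -0.05 and 0.32 in sets 1 to 3 with the treated RNA in Cy5, and at 0.20, -0.06 and 0.16 with it in Cy3. Both arrays of sets 1 and 3 were above 0 and both of set 2 slightly below it, so the sets differed more than the dyes did. The mean was 0.17 ± 0.21 (n = 3 sets, adjusted p = 0.227, limma), with a 95% confidence interval of -0.02 to 0.37, which allows a rise of up to 1.29-fold. Without set 2 the mean was 0.29 (adjusted p = 0.00706, limma) and Il15 then passed.

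Set against each other within an array, Il10 exceeded every other measured member on every array that held both. The difference of log2 ratios was 1.97 ± 0.28 from Il12a, 2.07 ± 0.14 from Il12b, 2.07 ± 0.21 from Il23a and 1.89 ± 0.13 from Il15 (SD, n = 3 sets), that is a change 3.70-fold to 4.19-fold larger for Il10. These 4 differences were positive on 6 of 6 arrays, and each gave p = 0.0312 in a two-sided exact permutation test that flips the signs of the arrays, the smallest p that 6 arrays allow (0.0391 adjusted over the 5 pairs compared). From Ebi3 the difference was 1.71 ± 0.09, positive on 4 of 4 arrays, where the exact permutation test cannot go below p = 0.125. Every pair contains the same Il10 values, so these tests are not separate results. Flipping single arrays takes the arrays as independent, which the dye-swap arrays of a set may not be. Over the 3 sets in place of the arrays the same exact permutation test cannot go below p = 0.25, which every pair reached.

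**Figure D3:**
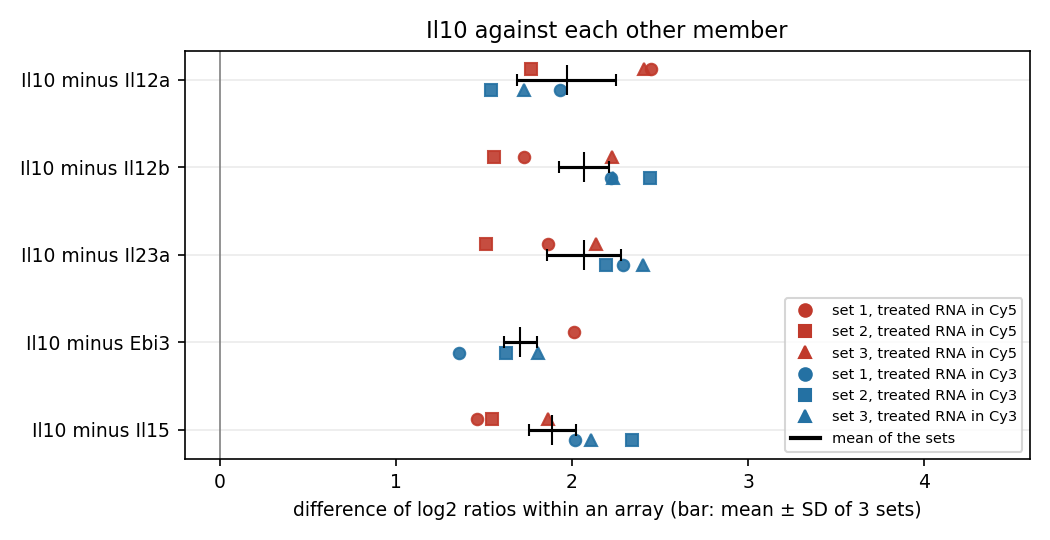
Difference between the log2 ratio of Il10 and that of each other member within an array (x axis), for the 5 pairs (y axis), with red for treated RNA in Cy5, blue for treated RNA in Cy3, a symbol per set, and a black bar for the mean ± SD of 3 sets. All points lie between 1.36 and 2.45.

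By mean log2 ratio the members ran Il10 (2.06), Ebi3 (0.50), Il15 (0.17), Il12a (0.09), Il23a (-0.00) and Il12b (-0.00). From Il15 downward, each gap between neighbours was within the larger SD of the pair, and these gaps were not tested. All 9 cytokine genes listed for reference rose by limma, as did 7.35% of all features. Beside these 9, Il10 stood between Tnf (2.15 ± 0.18) and Il6 (1.14 ± 0.42), and the gap to Tnf was within the SD of either. Above them stood Il1b (3.98 ± 0.12), which encodes an interleukin 1 ligand, Ifnb1 (3.58 ± 0.70), the interferon beta gene, and Csf3 (2.91 ± 0.40), a granulocyte growth factor gene. Il1a, the other interleukin 1 ligand gene, rose 5.83-fold (2.54 ± 0.40), Lif, of the IL-6 family, 1.65-fold (0.72 ± 0.10), and Tgfb1, which like IL-10 restrains macrophages, 1.40-fold (0.48 ± 0.04), with adjusted p of at most 0.00127 by limma. The Lif probes disagreed: probe 9040 averaged 1.61 and was higher on 6 of 6 arrays, and probe 11412 averaged -0.16 and was lower on 4. On 4 arrays a second Csf3 probe split by dye. It stood at -3.36 and -2.85 in sets 1 and 2 with the treated RNA in Cy5. With that RNA in Cy3 the probe stood at 2.84 and 0.36 in sets 1 and 3. With zeros taken as measured, which brings this probe in, Csf3 stood at 1.20 (adjusted p = 0.0187, limma). The growth factor gene Csf2 rose 1.53-fold (0.61 ± 0.33, adjusted p = 0.0183), but not without set 3 (0.108) or without the set 1 array with the treated RNA in Cy3 (0.118) or an array of set 2 (0.0583 and 0.0793). Il6 did not pass without set 3 (adjusted p = 0.0538, limma).

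The named genes whose 6 log2 ratios lay nearest to those of Il10, by root mean square distance, were Hcar2 (0.17), Gadd45a (0.24), Bcl3 (0.29), Peli1 (0.31) and Rrad (0.31). Hcar2 encodes a receptor for niacin and hydroxybutyrate, Gadd45a a stress response protein, Bcl3 an atypical IκB protein, Peli1 a ubiquitin ligase of Toll-like receptor signalling and Rrad a small GTPase. Their mean log2 ratios were 1.95 ± 0.17 for Hcar2, 2.01 ± 0.21 for Gadd45a, 1.86 ± 0.16 for Bcl3, 2.04 ± 0.17 for Peli1 and 2.03 ± 0.13 for Rrad. Il10, Hcar2, Gadd45a and Bcl3 each had their lowest value on the set 2 array with the treated RNA in Cy5, at 1.49, 1.46, 1.20 and 1.58, while Peli1 and Rrad were lowest on the set 3 array with it in Cy3, at 1.80 and 1.82. All of these arrays carry the same comparison, and the distance is a description.

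**Figure D4:**
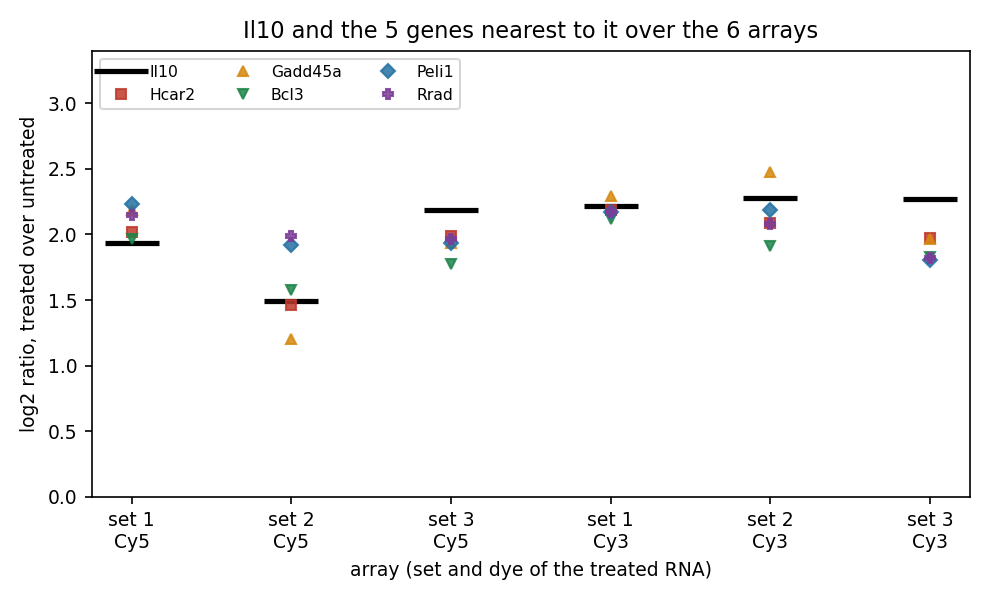
Log2 ratio of treated over untreated RNA (y axis) of Il10 (black dashes) and of the 5 named genes nearest to it (coloured symbols) on each array (x axis: set, and dye of the treated RNA). On the set 2 array with the treated RNA in Cy5, Il10 stands at 1.49 and Gadd45a at 1.20, below their values on the other arrays.

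Genes of the IL-10 receptor, its signalling and its known targets were mostly higher, in a list chosen with earlier results of these data known. Whether IL-10 caused any of these changes was not tested. Of 17 listed, 16 were tested, and 10 were higher, 1 was lower and 5 did not pass by limma, where 7.35% of all features were higher and 7.45% lower. The median of the list was 0.24 against -0.00 for all features. Il10ra, the ligand-binding receptor chain, stood at 0.77, 0.54 and 0.83 in sets 1 to 3 with the treated RNA in Cy5 and at 0.89, 0.54 and 0.75 with it in Cy3. It rose 1.65-fold (0.72 ± 0.16, n = 3 sets, adjusted p = 0.0012), on 6 of 6 arrays, with means of 1.02 and 0.41 over the arrays for its probes, the second of which was at -0.07 on 1 array. Il10rb, the chain shared with other receptors of the family, rose 1.22-fold (0.29 ± 0.04, adjusted p = 0.00902), with both probes between 0.11 and 0.39 on every array.

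Downstream, Stat3, the transcription factor of the receptor, stood at 0.26 ± 0.04 and the kinase gene Jak1 at 0.21 ± 0.06, both called higher, while its partner Tyk2 was at 0.19 ± 0.10 (adjusted p = 0.0652, limma). Among targets, Il1rn, which encodes the interleukin 1 receptor antagonist, rose 3.95-fold (1.98 ± 0.25), Bcl3 3.64-fold (1.86 ± 0.16), Tnfaip3, the gene of the ubiquitin-editing protein A20, 2.79-fold (1.48 ± 0.03) and the mRNA decay gene Zfp36 1.80-fold (0.85 ± 0.08). A second Il1rn probe had a value on 1 array, 0.26, and with zeros taken as measured Il1rn stood at 1.01. The Tnfaip3 probes averaged 2.01 and 0.96 over the arrays. Ddit4, an inhibitor of mTOR signalling, was the lower gene, by 1.62-fold (-0.70 ± 0.09, adjusted p = 0.000515, limma, lower on 6 of 6 arrays). Socs3, the feedback inhibitor induced through STAT3, stood at 0.09 ± 0.06 (adjusted p = 0.281, limma). Nfil3, a basic leucine zipper factor, at 0.18 ± 0.02 and Hmox1, the heme oxygenase gene, at 0.24 ± 0.09 completed the higher genes.

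Of these 11 called genes, 6 passed under all 18 alternatives run for them: Il10ra, Bcl3, Zfp36, Il1rn, Ddit4 and Tnfaip3. Il10rb, Jak1, Stat3, Nfil3 and Hmox1 did not pass without set 3 (adjusted p from 0.11 to 0.238, limma) or without either array of set 2 (from 0.0677 to 0.418). Jak1, Nfil3 and Hmox1 did not pass without set 1 (from 0.102 to 0.115) and Jak1 and Nfil3 without set 2 (0.0527 and 0.107). All of these but Il10rb also failed without at least 1 array of set 1 or 3. Hmox1 stood at 0.42 with the treated RNA in Cy5 alone and at 0.06 with it in Cy3 alone, passing in neither (adjusted p = 0.059 and 0.558, limma). Jak1 and Nfil3 also passed in neither (0.103 to 0.15). Stat3 did not pass with the treated RNA in Cy3 alone (0.13, adjusted p = 0.242), nor Il10rb with it in Cy5 alone (0.23, adjusted p = 0.126), by limma.

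Most receptors and signalling genes of the IL-12 family had no call. Of 16 listed, 12 were tested, and 3 were higher (Jak2, Stat3 and Jak1), 0 lower and 9 without a call by limma. Of all features, 7.35% were higher and 7.45% lower. At an unadjusted p under 0.05, 4 were higher and 2 lower in the list, and its median was 0.01. Jak2, the kinase bound by the IL-12 receptor, stood at 1.16, 0.92 and 0.94 in sets 1 to 3 with the treated RNA in Cy5 and at 1.27, 1.18 and 1.07 with it in Cy3. It rose 2.12-fold (1.09 ± 0.11, adjusted p = 0.000111, limma) and passed under all 18 alternatives. Il12rb1, the receptor chain that binds p40, stood at -0.13 ± 0.06 (adjusted p = 0.141) and Il6st, the gp130 chain used by IL-27, at -0.25 ± 0.25 (adjusted p = 0.142), by limma. For both, the set 2 arrays opposed each other. With the treated RNA in Cy5 and in Cy3 they stood at -0.67 and 0.31 for Il12rb1, and at -1.14 and 0.12 for Il6st. Stat4, Tbx21, Ifng, Il18, Il18r1 and Il17a, which act in the lymphocyte response to these cytokines, stood between -0.04 and 0.02.

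Receptor and signalling genes of IL-15 went both ways. Of 13 listed, 12 were tested, and 2 were higher (Cish and Jak1), 3 lower (Il15ra, Bcl2 and Il21r) and 7 without a call by limma. The shares over all features were 7.35% higher and 7.45% lower, and the median of the list was 0.03. Il15ra, the chain that presents IL-15, stood at 0.32, -0.73 and -0.41 in sets 1 to 3 with the treated RNA in Cy5 and at -0.72, 0.21 and -0.61 with it in Cy3. The arrays of sets 1 and 2 thus opposed each other within the set, and the call (-0.32 ± 0.16, adjusted p = 0.0284, limma on sets) was lost in the fits to single arrays (0.305 with no block and 0.0693 with the set as a block). It was also lost without set 1 (0.0535), without set 3 (0.175) and without 4 of the single arrays (0.0549 to 0.634).

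Cish, a feedback inhibitor of STAT5 signalling, rose 1.80-fold (0.84 ± 0.28, adjusted p = 0.00328, limma, 6 of 6 arrays), with a single low array, set 2 with the treated RNA in Cy5, at 0.05. It did not pass without the set 2 array with the treated RNA in Cy3 (adjusted p = 0.178, limma) or with the treated RNA in Cy5 alone (0.181). These values are of probe 6048, while a second Cish probe averaged 0.32 over 5 arrays (0.25 to 0.42). Bcl2, a survival gene that IL-15 maintains in lymphocytes, was lower by 1.30-fold (-0.38 ± 0.03) and Il21r, the IL-21 receptor gene, by 1.28-fold (-0.36 ± 0.04), each lower on 6 of 6 arrays, and a second Il21r probe stood at -1.38 on 1 array. Bcl2 did not pass without set 3 (adjusted p = 0.0541, limma) or the set 2 array with the treated RNA in Cy5 (0.0667). Il21r did not pass without set 3 (0.0689) or the set 1 array with the treated RNA in Cy3 (0.0579). Bcl2 passed in neither orientation alone (0.0557 with the treated RNA in Cy5 and 0.0531 with it in Cy3). Nor did Il21r pass with the treated RNA in Cy5 alone (0.0985) or with zeros taken as measured (0.0717). The shared receptor chain Il2rb stood at 0.02 ± 0.16 (adjusted p = 0.878, limma).

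**Figure D5:**
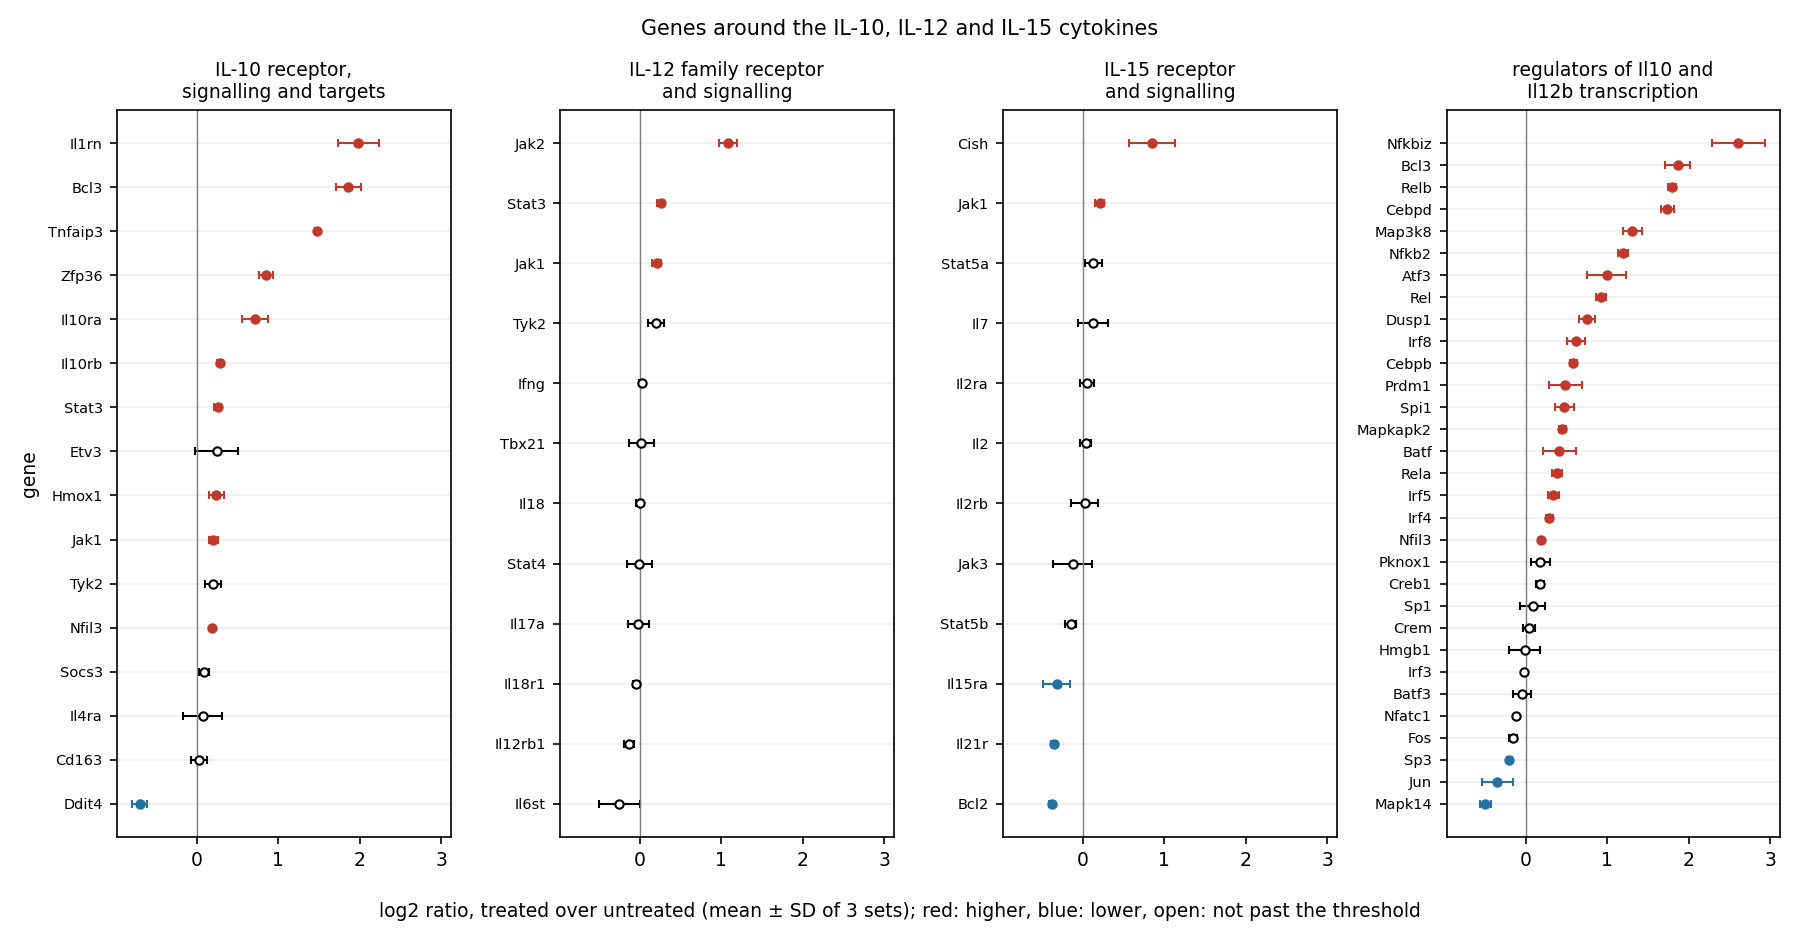
Mean log2 ratio of treated over untreated RNA (x axis, ± SD of 3 sets) of the tested genes (y axis) of 4 lists: IL-10 receptor, signalling and targets, IL-12 family receptors and signalling, IL-15 receptor and signalling, and regulators of Il10 and Il12b transcription. Red points are higher, blue lower and open points not past the threshold; 10, 3, 2 and 19 genes are higher and 1, 0, 3 and 3 lower.

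Factors known to act on Il10 or Il12b transcription were largely higher. Of 42 listed, 31 were tested, and 19 were higher and 3 lower by limma and 9 had no call, with a median of 0.38. Over all features 7.35% were higher and 7.45% lower. Nfkbiz, an atypical IκB protein that Il12b needs, rose 6.09-fold (2.61 ± 0.32), Relb 3.46-fold (1.79 ± 0.05) and Cebpd, a C/EBP factor, 3.33-fold (1.74 ± 0.08). The Nfkbiz probes averaged 1.60 and 3.61 over the arrays. Map3k8, the kinase TPL2 through which Toll-like receptors activate ERK and Il10, rose 2.48-fold (1.31 ± 0.12). Rel, the NF-κB subunit known for Il12b and Il23a, rose 1.90-fold (0.92 ± 0.06), Irf8, a lineage factor also tied to Il12b, 1.53-fold (0.61 ± 0.11), and Atf3, a repressor of cytokine genes, 1.99-fold (0.99 ± 0.24). A second Rel probe lay between -0.12 and 1.05 on 4 arrays.

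Mapk14, the p38α kinase gene, fell 1.41-fold (-0.50 ± 0.07), with both of its complete probes lower on 6 of 6 arrays and another probe at -2.66 on its only array. Its target kinase gene Mapkapk2 rose 1.36-fold (0.45 ± 0.05). Nfkb2, an NF-κB subunit gene, rose to 1.19 ± 0.06, Dusp1, a phosphatase that switches off p38, to 0.75 ± 0.10 and Cebpb, a C/EBP factor that acts on Il10 and Il12b, to 0.58 ± 0.04. These 12 regulators, from Nfkbiz to Cebpb, and Bcl3, 13 in all, passed under all 18 alternatives. Smaller rises were called for Prdm1 (0.49 ± 0.20), Spi1, the PU.1 gene (0.47 ± 0.12), Batf (0.41 ± 0.21), Rela (0.38 ± 0.06), Irf5 (0.34 ± 0.07), Irf4 (0.29 ± 0.05) and Nfil3. Jun (-0.35 ± 0.19) and Sp3 (-0.20 ± 0.03) were called lower. The set 2 arrays of Jun opposed each other, at -1.16 with the treated RNA in Cy5 and 0.37 with it in Cy3, and without the first of them its value was -0.10. In the limma fits to single arrays Jun had no call with the set as a replicate block (adjusted p = 0.0731), with a dye term (0.265) or with no block (0.31). The 9 genes from Prdm1 to Sp3 did not pass without the set 2 array with the treated RNA in Cy5 (adjusted p from 0.0592 to 0.778, limma). Of those 9, 7 did not pass without set 3 (from 0.0515 to 0.238), and Jun, Nfil3 and Sp3 not without set 1 (from 0.0955 to 0.114). Prdm1, Batf, Irf4, Nfil3, Jun and Sp3 passed in neither orientation alone (from 0.051 to 0.694). Irf5 did not pass with the treated RNA in Cy5 alone (0.261), nor Rela (0.15) and Spi1 (0.0597) with it in Cy3 alone. Prdm1 also had no call with no block (0.0563), and stood at 1.23 on the set 2 array with the treated RNA in Cy3, against 0.17 to 0.53 elsewhere.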

How the data were processed

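Each value the authors deposited is a log2 ratio between both dyes of an array, taken as Cy5 over Cy3 from the channel names per the labels. No source used here states the direction or the base: the base was read from the values, of which 87.3% to 92.8% of the non-zero ones per array are rounded log10 ratios multiplied into log2. Background correction, dye normalization and scanner were not stated in the sources used here. Spot intensities were not used, so it is unknown how far a probe stood above background, and precision rests on the number of arrays. Array medians lay between 0.00 and 0.02.

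Exact zeros (9.12% to 12.4% of an array) were taken as missing, arrays with treated RNA in Cy3 were multiplied by -1, probes measured on all 6 arrays were averaged per symbol, and arrays of a set were averaged. The set means were compared with 0 by limma (version 3.58.1, R version 4.3.3; lmFit, eBayes, Benjamini-Hochberg, threshold 0.05). The fit was also run on simulated data with independent normal values for each set. Those data hold no dye effect and no shared RNA, so that run cannot speak to either. Arrays were paired by set number, and the labels do not say whether a pair shares RNA. Before the signs were turned, deviations of same-numbered arrays from their orientation's mean correlated across features with r of 0.40, 0.43 and 0.14. As ratios of treated over untreated RNA these correlations are negative, so they do not show a response shared within a set. Their cause was not tested. Named genes were all members, the listed genes past the threshold with each cytokine's own receptors, and the 5 genes nearest to Il10. Members and lists were chosen with earlier results of these data known.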

Additional observations from a re-analysis of the deposited data

Results flagged for a closer look

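Several values pointed one way on every array of one dye orientation and the other way on every array of the swapped one. Il12a probe 15389 averaged 1.15 with the treated RNA in Cy3 and -0.77 with it in Cy5, and its dye term passed (limma, adjusted p = 0.0402). The gene mean of Il12a, which contains it, averaged 0.53 and -0.34. Ebi3 averaged 0.66 on 3 arrays with the treated RNA in Cy3 and stood at -0.08 on 1 array with it in Cy5. Socs3 averaged 0.39 and -0.20, Il18 0.21 and -0.21, and Il17a -0.23 and 0.19 in the same order. In the limma fit with a dye term per probe, the dye term did not pass for Socs3 (-0.30, adjusted p = 0.0586), for Il17a (0.21, adjusted p = 0.114) or for the probes of Il18 (-0.15, adjusted p = 0.115, and -0.27, adjusted p = 0.19). For Ebi3 and the gene mean of Il12a the difference between orientations was not tested. The second Csf3 probe also split by dye on its 4 arrays, and its difference was not tested either.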

How the results depend on the processing

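The Il10 rise passed under all 20 alternatives, between 1.87 and 2.26. Il12b, Il23a and Il12a passed under none. With the set as a random replicate block on single arrays, 2282 features and 1 member passed, and Il10 had adjusted p = 6.70e-07, and the block changed no member's call. With no block, 1376 features passed. Features past the threshold, 1663 in the fit reported, numbered 639 with the treated RNA in Cy5 alone and 655 with it in Cy3 alone, and 533 to 1685 without a set or an array. The members past the threshold were 2 with missing values allowed and 2 with zeros taken as measured, Ebi3 being the second in both, and 1 to 2 without a set or an array, Il15 being the second without set 2. With the treated RNA in Cy5 alone, Il10 exceeded Il12b by 1.84, Il23a by 1.84 and Il15 by 1.62, and with it in Cy3 alone by 2.30, 2.30 and 2.16. Without a set or an array it exceeded Il12b by 1.92 to 2.22 and Il15 by 1.76 to 2.02. The cause was not tested. The fits of Ebi3 with a dye term, in Cy3 alone and without each set were chosen after seeing the data.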

Other observations

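Among other ligands of the IL-10 family, 2 of 13 listed genes were tested. Il20 was called higher (0.37 ± 0.06, adjusted p = 0.00436, limma on sets), with arrays from -0.34 to 0.98. It passed neither orientation alone (adjusted p = 0.864 with the treated RNA in Cy5 and 0.0507 with it in Cy3, limma). It was also not past the threshold without set 3 (0.0617), the arrays of set 1 (0.643 and 0.0577) or the set 2 array with the treated RNA in Cy5 (0.0635). A second Il20 probe lay between -0.37 and 0.29 on 4 arrays. Il22, of lymphocytes, stood at -0.02 ± 0.18 (adjusted p = 0.905).

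Listed genes without a value on every array add single readings. Irf1, a factor that induces Il12a and Il15, was higher on 5 of 5 arrays, from 0.42 to 1.34. Junb, an AP-1 subunit, had a value on 1 array, 1.38. The IL-27 receptor gene Il27ra had 1 probe between -0.01 and 0.47 on 4 arrays and 1 between -0.36 and 0.25 on 3. Il12rb2, the signalling chain of the IL-12 receptor, lay between -0.38 and 0.31 on 5 arrays.

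Of 7 macrophage marker genes tested, 2 were higher (Adgre1 at 0.83 and Spi1 at 0.47), 2 lower (Fcgr1 at -0.47 and Csf1r at -0.21) and 3 not past the threshold. Their median was 0.00, and 14.8% of all features passed in either direction. By limma, 0 of 4 dendritic cell, 0 of 6 lymphocyte and 0 of 3 fibroblast and epithelial markers passed, against 1, 2 and 1 at an unadjusted p under 0.05. Under alternative settings at most 1, 2 and 1 passed. Spi1 did not pass without the set 2 array with the treated RNA in Cy5 (0.0622), and Csf1r not without any set (0.0574 to 0.147).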
